A study of Mus musculus with 12 samples.

Results

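Spi1, Cebpa, Cebpb, Cebpd, Irf8, Irf4, Gfi1, Runx1, Myb and Id2, 10 transcription regulators that direct blood progenitors toward or away from the myeloid lineages, were followed in stem and progenitor cells of a mouse model of chronic myeloid leukemia (CML). They were taken by name from the 46103 genes of the expression tables. BCR-ABL1, the fusion kinase of CML, had been delivered with a retrovirus that also carries GFP into bone marrow cells of 5FU-treated mice bearing the G0 marker (G0M), a reporter in the Rosa26 locus switched on by Vav1-Cre in blood cells, and the cells had been given to lethally irradiated C57BL/6 mice. From these mice, BCR-ABL1+ LSK cells (lineage-, Sca-1+, c-Kit+) that were all CD27+ were sorted from bone marrow and spleen at 100 cells per library. DP cells (G0M+, stem cells) and SP cells (G0M-, progenitors) came from vehicle-treated mice, and IMDP and IMSP cells were the same populations from mice given the kinase inhibitor imatinib by oral gavage once a day. There were 3 libraries per group and 12 in all. The labels do not say whether the libraries of a group came from separate mice, so that p-values measure the spread between libraries.

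PU.1, the product of Spi1, and C/EBPα, the product of Cebpa, are DNA-binding factors that open the myeloid program in multipotent progenitors, and C/EBPβ and C/EBPδ are relatives that act at later stages and in emergency myelopoiesis. Downstream, Irf8 favors monocytes and dendritic cells, whereas Gfi1, a repressor, favors granulocytes, and Irf4 acts mainly in lymphoid, dendritic and alternatively activated cells. Runx1 and Myb are expressed throughout stem and progenitor cells, and Id2 encodes a protein without a DNA-binding domain that holds E proteins away from their E-box sites. Loss of C/EBPα activity by BCR-ABL1 and of Irf8 in CML is long known from studies of this disease.

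The members lie on 8 chromosomes of GRCm38 (chr2:91082390-91115756 for Spi1, chr7:35119293-35121928 for Cebpa, chr2:167688915-167690418 for Cebpb, chr16:15887286-15891031 for Cebpd, chr8:120736358-120756694 for Irf8, chr13:30749226-30766976 for Irf4, chr5:107716657-107726036 for Gfi1, chr16:92601466-92826149 for Runx1, chr10:21124935-21160984 for Myb and chr12:25093799-25097140 for Id2). Cebpa, Cebpb, Cebpd, Gfi1, Runx1 and Myb share exonic bases with a gene on the other strand, from 51 bases (Cebpa with Gm45091) to 562 bases (Cebpd with Spidr). The library kit does not mark strand, so reads from such a stretch cannot be told apart. Spi1, Irf8, Irf4 and Id2 share none.

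Promoters are shown for Cebpa, Cebpb and Id2, which passed a comparison below, and for Gfi1 and Irf8, which passed with pairs of libraries held together, with the bases before a RefSeq transcription start (250 bases where no exon of the same gene in GENCODE M21 covered them). The Gfi1 sequence lies before the second of its 2 listed starts, the Irf8 sequence before the first of 2, and the Id2 sequence is the outer 89 bases, from 250 to 162 bases before the start. Capitals mark letters that match a searched motif on either strand.
Cebpa, GRCm38.p6, chr7:35119043-35119292, plus strand: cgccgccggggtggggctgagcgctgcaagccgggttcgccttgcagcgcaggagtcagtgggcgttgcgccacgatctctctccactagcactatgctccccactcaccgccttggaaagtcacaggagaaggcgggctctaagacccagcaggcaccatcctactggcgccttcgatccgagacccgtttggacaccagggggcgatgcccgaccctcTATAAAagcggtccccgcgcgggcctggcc
Cebpb, GRCm38.p6, chr2:167688665-167688914, plus strand: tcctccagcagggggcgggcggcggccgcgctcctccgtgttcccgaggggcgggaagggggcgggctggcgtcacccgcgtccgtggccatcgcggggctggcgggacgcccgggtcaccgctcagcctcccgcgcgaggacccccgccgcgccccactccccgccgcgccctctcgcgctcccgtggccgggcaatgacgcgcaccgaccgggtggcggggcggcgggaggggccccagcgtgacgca
Gfi1, GRCm38.p6, chr5:107724344-107724593, minus strand: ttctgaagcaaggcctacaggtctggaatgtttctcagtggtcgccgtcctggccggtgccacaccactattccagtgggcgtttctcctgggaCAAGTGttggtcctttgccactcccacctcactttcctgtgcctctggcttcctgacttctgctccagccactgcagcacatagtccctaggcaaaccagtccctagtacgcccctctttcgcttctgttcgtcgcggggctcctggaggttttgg
Irf8, GRCm38.p6, chr8:120736108-120736357, plus strand: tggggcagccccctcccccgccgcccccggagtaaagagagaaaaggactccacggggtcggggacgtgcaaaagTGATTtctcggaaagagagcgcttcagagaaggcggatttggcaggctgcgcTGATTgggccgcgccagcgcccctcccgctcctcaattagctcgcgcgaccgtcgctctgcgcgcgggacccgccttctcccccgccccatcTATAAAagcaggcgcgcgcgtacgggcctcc
Id2, GRCm38.p6, chr12:25096254-25096342, minus strand: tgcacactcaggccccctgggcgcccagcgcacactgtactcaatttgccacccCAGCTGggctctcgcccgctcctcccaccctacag

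Both strands were searched for 6 motifs, which did not overlap one another in these 5 sequences, and each share below is over the same 250 bases of 32851 RefSeq windows. The C/EBP letters TTGCNNAA were held by 9.56% of windows. The PU.1 letters GAGGAA stood in 23.3%, and the RUNX letters TGTGGT in 14.0%. An E-box, CANNTG, stood in 66.2% of windows, the GFI1 letters AATCA in 33.7%. TATAAA, the TATA box, was found in 12.4%. A TATA box began 30 bases before the Cebpa start and 31 bases before that of Irf8. Irf8 also held 2 matches to the GFI1 letters, 175 and 123 bases before its start. An E-box stood 196 bases before the Id2 start and another 156 bases before the shown Gfi1 start. The window of the other Gfi1 start, not shown, held 1 match to the C/EBP letters 143 bases before it and an E-box 42 bases before it. The window of the other Irf8 start, also not shown, held 2 E-boxes and 1 match to the GFI1 letters. The Cebpb window held no match. Such matches describe the letters of these windows and were not tested for binding. Among the 10 members, 8 had an entry, and Spi1 and Cebpd did not.

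Expression is given as RPKM, reads scaled to transcript length and to the total of the library, and that total ran from 11.37 to 20.57 M reads, of which 25.5% (IMDP2) to 36.6% (IMSP1) fell on listed genes. This share was 25.5% to 30.7% in IMDP and 32.2% to 36.6% in IMSP libraries. In DP and SP libraries it was 30.4% to 33.2% and 31.7% to 33.7%. Mki67, a proliferation marker, was at 10.9 to 21.2 RPKM in DP and 7.18 to 10.1 RPKM in IMDP cells, against 50.8 to 57.7 RPKM in SP and 54.5 to 70.6 RPKM in IMSP cells, and the LSK genes Kit, Ly6a, Cd27 and Cd34 were detected in all 12 libraries. In bulk RNA, fewer cells of a type and less RNA per cell cannot be told apart, which holds for all values that follow. All imatinib libraries carry library numbers 1 to 6 and all vehicle libraries 7 to 12, so that treatment and library number cannot be told apart. Neighbouring numbers (1 and 2, 3 and 4, and so on) always joined 1 G0M+ and 1 G0M- library of the same treatment, and the deviations of the 6 pairs from their group means correlated at 0.43 to 0.65 across genes. The labels do not say what such a pair shares. Where a fit that holds each pair together changed the call of a member, its value is given beside the result.

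Myb and Runx1 were the most abundant members, and their levels varied least. Myb ranged from 32.2 to 62.7 RPKM over the 12 libraries, and its group mean stood at percentile 96.1 to 97.9 of the 10072 tested genes. Runx1 ranged from 14.0 to 22.3 RPKM. Spi1 was at 7.62 to 21.5 RPKM and Cebpa at 1.22 to 17.3 RPKM. Gfi1 (0.698 to 14.1 RPKM), Irf8 (0.841 to 20.9 RPKM), Id2 (0.641 to 9.94 RPKM) and Cebpb (0.765 to 5.3 RPKM) were lower. Between its lowest and highest library, Irf8 differed 24.8-fold, Gfi1 20.2-fold, Id2 15.5-fold and Cebpa 14.2-fold, against 1.6-fold for Runx1 and 1.95-fold for Myb. Read support went with the level and with gene length: Irf8 rested on 43 to 968 reads, whereas Id2 rested on only 11 to 198 reads.

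Irf4 and Cebpd were close to the detection limit, where 1 read per kilobase equals 0.0486 to 0.088 RPKM, and neither was tested. Cebpd reached 1 RPKM only in IMSP3 (1.28 RPKM, 39 reads) and was at 0 in DP2. Irf4 had at most 26 reads in a library. It was at 0.0267, 0.16 and 0.367 RPKM in DP and 0.0808, 0.365 and 0.037 RPKM in IMDP cells, compared with 0.0406, 0 and 0.0155 RPKM in SP and 0, 0 and 0.031 RPKM in IMSP cells. The other 8 members passed the filter on low values, set at 1 RPKM or more in 3 or more libraries, and were tested.

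Over the groups, mean Id2 was highest in DP cells (6.57 ± 2.92 RPKM), followed by IMDP (2.4 ± 1.03), SP (1.67 ± 0.391) and IMSP cells (1.07 ± 0.481 RPKM; SD, n = 3), and the libraries of the last 3 groups overlapped along this order. Mean Irf8 was highest in IMSP cells (12.0 ± 8.23 RPKM), followed by SP (3.91 ± 4.52), IMDP (3.35 ± 2.23) and DP cells (2.07 ± 0.376 RPKM), and neighbours in this order had overlapping libraries. Mean Cebpa ran from IMSP (12.8 ± 5.12 RPKM) through SP (10.5 ± 4.69) and DP (6.1 ± 4.95) to IMDP cells (3.97 ± 2.39 RPKM), and neighbours in this order overlapped. Gfi1 had its lowest mean in IMDP cells (2.39 ± 0.381 RPKM) and its highest in SP cells (6.97 ± 6.2 RPKM), where the SD was close to the mean.

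**Figure D1:**
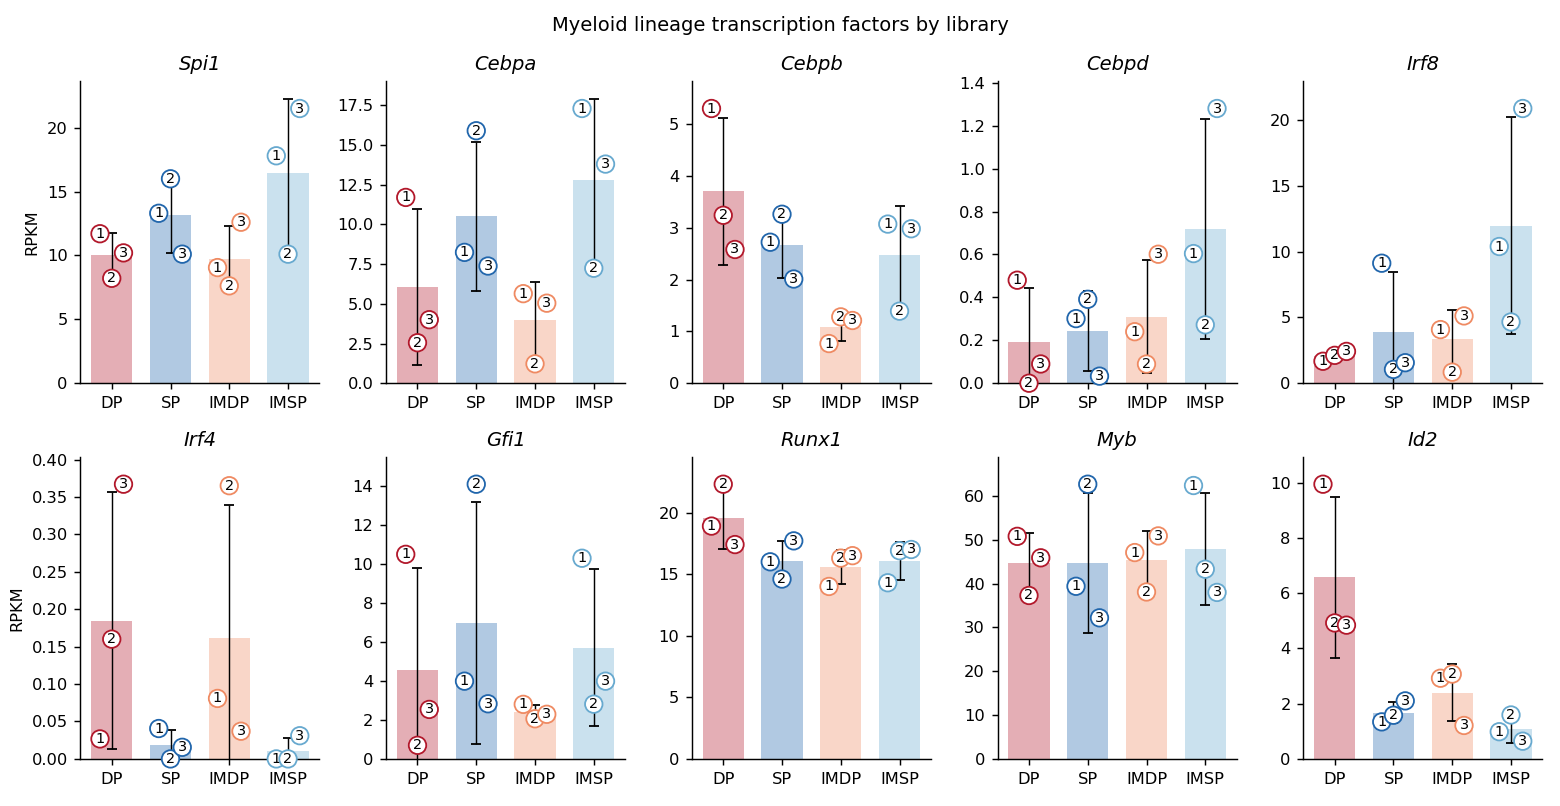
RPKM of the 10 members in the 4 groups, with bars for the group mean, error bars for the SD (n = 3) and circles numbered by replicate. Id2 is highest in the 3 DP libraries (4.84 to 9.94 RPKM), Cebpb is lowest in the 3 IMDP libraries (0.765 to 1.28 RPKM), and Cebpa, Irf8 and Gfi1 differ widely among libraries of 1 group.

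DP and SP cells were compared first, to see which myeloid regulators separate quiescent stem cells from progenitors without drug. Id2, whose product restrains E proteins, was the member that passed the test. It was at 9.94, 4.92 and 4.84 RPKM in DP1, DP2 and DP3 against 1.34, 1.58 and 2.1 RPKM in SP1, SP2 and SP3. Every DP library was above every SP library, and the log2 fold change was 1.85 ± 0.41 (SE), or 3.61-fold (adjusted p = 0.033, limma). Of the 8 tested members 1 passed, beside 2.26% of all tested genes, and 1 of 8 had libraries that did not overlap, beside 22.4% of all tested genes. Id2 missed the threshold without any 1 of the DP or SP libraries or without IMSP1, with an adjusted p of up to 0.134, and its log2 fold change stayed between 1.51 and 2.03.

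Cebpa, the master regulator of the granulocyte and monocyte progenitor stage, was at 11.7, 2.55 and 4.0 RPKM in DP cells and at 8.24, 15.9 and 7.38 RPKM in SP cells. DP1 lay among the SP libraries, and the other DP libraries lay below all of them. The log2 fold change was -0.99 ± 0.63 (adjusted p = 0.526, limma), and leaving out 1 library moved it between -1.6 and -0.52. With the pairs of neighbouring libraries held together, its SE fell to 0.23 and the adjusted p to 0.0314. In that fit, 2 members passed, Cebpa and Id2, beside 9.73% of all genes. Spi1 (8.21 to 11.7 RPKM in DP, 10.1 to 16.0 RPKM in SP), Cebpb (2.58 to 5.3 against 2.01 to 3.26 RPKM), Irf8 (1.67 to 2.42 against 1.05 to 9.13 RPKM), Gfi1 (0.698 to 10.5 against 2.83 to 14.1 RPKM), Runx1 (17.4 to 22.3 against 14.6 to 17.7 RPKM) and Myb (37.3 to 50.8 against 32.2 to 62.7 RPKM) overlapped between the groups and passed in neither fit. The intervals were narrow enough for Runx1 (95% CI of the log2 fold change -0.03 to 0.58) and Myb (-0.5 to 0.59) to leave out a 2-fold difference, but not for Irf8 (-2.02 to 1.47) or Gfi1 (-2.77 to 0.82).

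Under imatinib, Cebpa and Cebpb were lower in stem cells than in progenitors. Cebpa was at 5.64, 1.22 and 5.04 RPKM in IMDP1, IMDP2 and IMDP3, all below the 17.3, 7.24 and 13.8 RPKM of IMSP1, IMSP2 and IMSP3. Its log2 fold change was -1.84 ± 0.63, or 3.57-fold lower (adjusted p = 0.0496). Cebpb, a C/EBP member drawn on under inflammatory and cytokine stress, was at 0.765, 1.28 and 1.21 RPKM in IMDP cells and at 3.07, 1.39 and 2.98 RPKM in IMSP cells. Again the groups did not overlap, though IMSP2 was close to IMDP2, and the log2 fold change was -1.07 ± 0.34, or 2.1-fold lower (adjusted p = 0.0399). Both calls were close to the threshold. When 1 library was left out, Cebpa passed in 4 of 12 fits, those without DP1, DP2, IMDP1 or IMSP2, and its log2 fold change ran from -2.21 to -1.16, the last without IMDP2 (adjusted p = 0.196). Cebpb passed in 5 of 12, those without DP1, DP3, SP2, SP3 or IMSP2, at -1.43 to -0.86, and its adjusted p reached 0.155 without IMSP1. By limma-voom on recovered reads, Cebpa passed (-1.91, adjusted p = 0.0439) and Cebpb did not (-1.17, adjusted p = 0.091).

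Spi1, Irf8 and Gfi1 were also lower on average in IMDP cells, and Id2 was higher, without passing. Spi1 was at 9.05, 7.62 and 12.6 RPKM in IMDP cells and 17.8, 10.1 and 21.5 RPKM in IMSP cells, and IMSP2 fell within the IMDP range (log2 fold change -0.71 ± 0.28, adjusted p = 0.0815). Irf8 was at 4.08, 0.841 and 5.12 RPKM against 10.4, 4.66 and 20.9 RPKM (-1.89 ± 0.8, adjusted p = 0.1), with IMSP2 again among the IMDP libraries. Id2 was at 2.92, 3.07 and 1.21 RPKM against 0.984, 1.59 and 0.641 RPKM (1.07 ± 0.41, adjusted p = 0.0719), where IMDP3 lay below IMSP2. Gfi1 did not overlap, at 2.8, 2.06 and 2.29 RPKM against 10.3, 2.81 and 3.99 RPKM, but IMDP1 and IMSP2 were nearly level and IMSP1 stood far above the rest (-1.02 ± 0.82, adjusted p = 0.377). Runx1 (-0.04 ± 0.14) and Myb (-0.06 ± 0.25) showed differences far smaller than their spread. Without 1 library, the log2 fold change ran from -1.4 to -0.48 for Gfi1 and from -2.44 to -1.12 for Irf8, and neither passed. Spi1 passed in 1 and Id2 in 2 of 12 such fits (limma).

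In this comparison 2 of 8 members passed, beside 25.6% of all genes, and 3 of 8 did not overlap, beside 39.0% of all genes. With neighbouring libraries held together, 6 of 8 passed, beside 44.1% of all genes. These were Cebpa (adjusted p = 0.000502), Spi1 (adjusted p = 0.00212), Irf8 (adjusted p = 0.00588), Id2 (adjusted p = 0.00853), Cebpb (adjusted p = 0.0177) and Gfi1 (adjusted p = 0.0261). The median of all genes was shifted by -0.25, and that of the 8 members was -0.86 (log2 scale). When the libraries were scaled to 1 median, Cebpa (-1.56, adjusted p = 0.0985) and Cebpb (-0.8, adjusted p = 0.143) no longer passed and Id2 did (1.34, adjusted p = 0.0369).

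**Figure D2:**
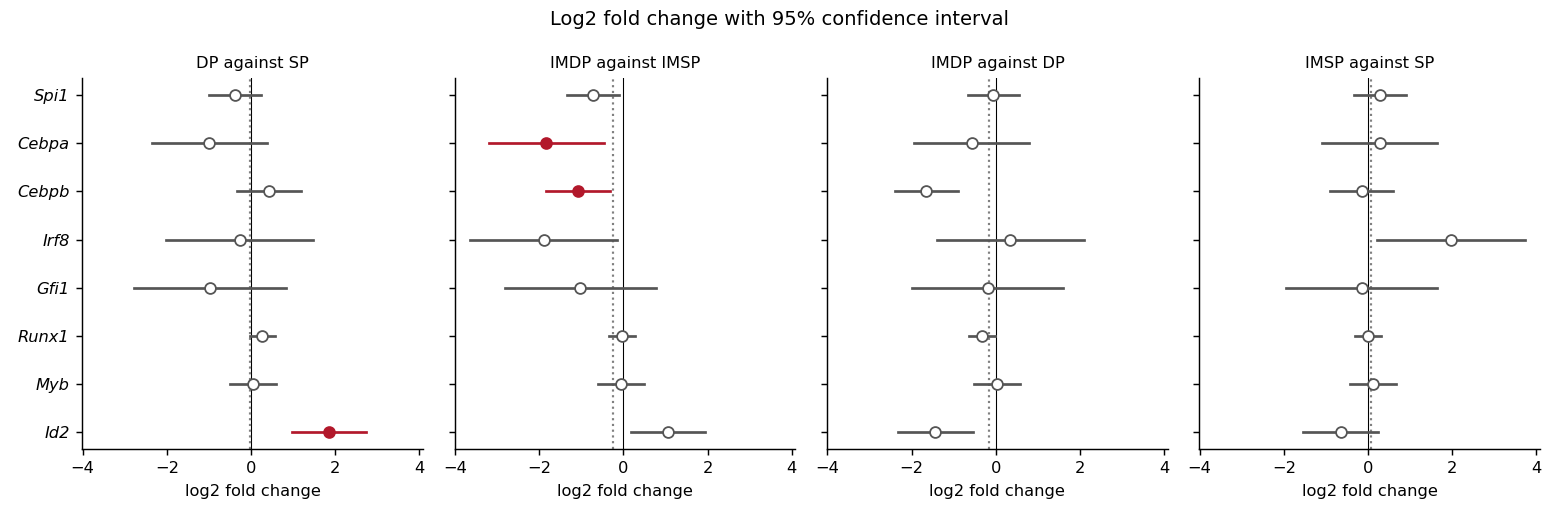
Log2 fold change (x axis) of the 8 tested members in the 4 pairwise comparisons, with 95% confidence intervals. Filled red points passed an adjusted p of 0.05 (limma), and dotted lines mark the median of all genes. Id2 passed in DP against SP at 1.85, and Cebpa and Cebpb passed in IMDP against IMSP at -1.84 and -1.07.

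Averaged over both treatments, Cebpa was 2.66-fold lower in G0M+ than in G0M- cells (log2 fold change -1.41 ± 0.44, adjusted p = 0.036), and Id2 was 2.75-fold higher (1.46 ± 0.29, adjusted p = 0.00497). Cebpa missed the threshold without DP2, DP3, SP1, SP2, IMDP2, IMSP1 or IMSP3, with an adjusted p of up to 0.0887. It also missed with libraries scaled to 1 median (-1.25, adjusted p = 0.0547, limma) and without the filter on low values (adjusted p = 0.0648, limma). Cebpa and Id2 were 2 of 8 members, beside 26.3% of all genes. Within the pairs of neighbouring libraries, Spi1, Cebpa and Gfi1 were lower in the G0M+ library in 6 of 6 pairs, and Id2 was higher in 6 of 6. The log2 difference within a pair ran from -2.47 to -0.43 for Cebpa, from -1.88 to -0.42 for Gfi1, from -0.97 to -0.3 for Spi1 and from 0.82 to 2.58 for Id2. Thus 4 of 8 members kept 1 direction in all pairs, beside 36.2% of all genes.

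Irf8 was lower in the G0M+ library in 4 of 6 pairs and higher in DP1 than SP2 (0.63) and in DP2 than SP3 (0.42). Cebpb was also lower in 4 of 6, and its log2 difference was -1.88, -0.11 and -1.24 in the imatinib pairs and -0.07, 0.68 and 0.67 in the vehicle pairs. In the fit that held the pairs together, Cebpa (adjusted p = 0.000255), Id2 (adjusted p = 0.000333), Spi1 (adjusted p = 0.00132), Gfi1 (adjusted p = 0.00585) and Irf8 (adjusted p = 0.0145) passed, 5 of 8 members beside 46.9% of all genes. Runx1 (0.12 ± 0.1) and Myb (-0.01 ± 0.18) passed in neither fit, and the sign of Myb turned to 0.15 when libraries were scaled to 1 median.

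**Figure D3:**
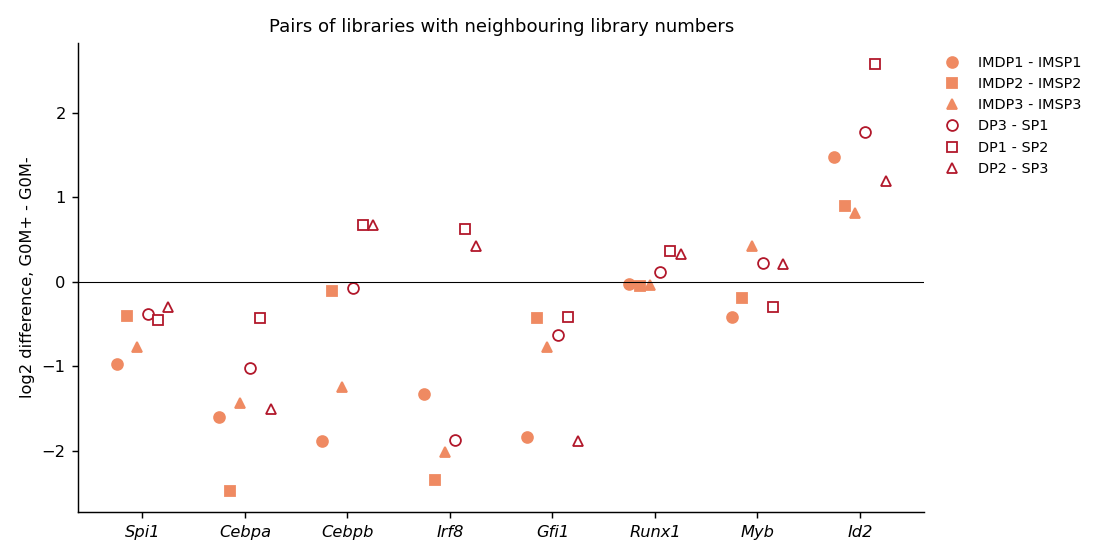
Log2 difference between the G0M+ and the G0M- library of each pair of neighbouring library numbers (y axis) for the 8 tested members, with open symbols for vehicle and filled symbols for imatinib. All 6 points lie below 0 for Spi1, Cebpa and Gfi1 and above 0 for Id2.

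The response to imatinib was read next, first in stem cells. No member passed in IMDP against DP cells (limma; 3 of 8 members and 20.5% of all genes at an unadjusted p under 0.05, and 0 of 8 by limma-voom on recovered reads), beside 0.367% of all genes. In 3 of 8 members the libraries did not overlap, beside 23.6% of all genes. Cebpb was at 0.765 to 1.28 RPKM in IMDP cells and 2.58 to 5.3 RPKM in DP cells, so that all imatinib libraries lay below all vehicle libraries (log2 fold change -1.65 ± 0.34, 95% CI -2.4 to -0.9, adjusted p = 0.0592). Id2 likewise was at 1.21 to 3.07 against 4.84 to 9.94 RPKM (-1.44 ± 0.41, 95% CI -2.32 to -0.55, adjusted p = 0.102). Runx1 was at 14.0 to 16.5 against 17.4 to 22.3 RPKM (-0.32 ± 0.14, adjusted p = 0.23). Spi1 (-0.06 ± 0.28), Cebpa (-0.57 ± 0.63), Irf8 (0.35 ± 0.8), Gfi1 (-0.19 ± 0.82) and Myb (0.02 ± 0.25) overlapped between the groups.

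In progenitors, IMSP against SP, no member passed either, and 0.0% of all genes did (limma; 1 of 8 members and 845 of 10072 genes at an unadjusted p under 0.05, and 0 genes by limma-voom). No member was free of overlap, beside 13.8% of all genes. The member with the unadjusted p under 0.05 was Irf8, which drives monocyte fate and is reduced in CML patients' cells. It was at 10.4, 4.66 and 20.9 RPKM in IMSP and 9.13, 1.05 and 1.56 RPKM in SP cells (log2 fold change 1.97 ± 0.8, 95% CI 0.22 to 3.72, adjusted p = 0.531). SP1 was above IMSP2, and both other SP libraries were below all IMSP libraries.

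Averaged over both populations, imatinib moved no member past the threshold, beside 0.854% of all genes (limma; 2 of 8 members and 18.0% of all genes at an unadjusted p under 0.05, and 0 of 8 by limma-voom). Those 2 were Cebpb (-0.9 ± 0.24, adjusted p = 0.0918) and Id2 (-1.05 ± 0.29, adjusted p = 0.0947), and Irf8 was at 1.16 ± 0.57 (adjusted p = 0.306). The test of whether the population difference depended on treatment called no member and 0.0% of all genes (limma; 1 of 8 members and 937 of 10072 genes at an unadjusted p under 0.05, and 0 genes by limma-voom). For Cebpb, the member with the unadjusted p under 0.05, the population difference under imatinib minus that under vehicle was -1.5 ± 0.49 (adjusted p = 0.534), from a DP mean of 3.71 ± 1.42 and an SP mean of 2.66 ± 0.63 RPKM to an IMDP mean of 1.08 ± 0.28 and an IMSP mean of 2.48 ± 0.946 RPKM (SD, n = 3). The 4 pairwise comparisons share libraries, so that they are not independent of each other.

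Within single libraries, 3 ratios between members were compared as mean log2 ratios. Myb to Id2 was at 2.82 ± 0.44 in DP against 4.63 ± 0.69 in SP cells, and at 4.28 ± 0.89 in IMDP against 5.4 ± 0.63 in IMSP cells (SD, n = 3). It differed by -1.47 between G0M+ and G0M- cells (exact permutation, two-sided p = 0.01, adjusted over 6 tests 0.06) and by 1.12 between imatinib and vehicle (exact permutation p = 0.02, adjusted 0.06). Taken alone, Myb differed by -0.01 and Id2 by 1.46 between the populations. With imatinib they differed by 0.07 and -1.05, so that the ratio mainly followed Id2. The ratio was lower in the G0M+ library in 6 of 6 pairs. Cebpb to Cebpa was at -0.47 ± 0.75 in DP against -1.88 ± 0.35 in SP cells, and at -1.55 ± 1.45 in IMDP against -2.31 ± 0.14 in IMSP cells. It was 1.09 higher in G0M+ cells (exact permutation p = 0.035, adjusted 0.07) and differed by -0.75 with imatinib (exact permutation p = 0.15, adjusted 0.225). Irf8 to Gfi1, the balance of monocyte and granulocyte regulators, differed by -0.09 between the populations (exact permutation p = 0.925, adjusted 0.925) and by 1.33 with imatinib (exact permutation p = 0.22, adjusted 0.264). Its spread within groups was large, with an SD of 1.21 to 2.41. None of the 6 tests passed 0.05 after adjustment, and the smallest p the 400 arrangements allow is 0.005. These arrangements did not hold neighbouring libraries together. Within such pairs, Cebpb to Cebpa was higher in the G0M+ library in 5 of 6 and Irf8 to Gfi1 in 3 of 6.

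Libraries of 1 group differed in which member was high. Gfi1 and Cebpa were each at the highest level of their group in DP1 (10.5 and 11.7 RPKM), SP2 (14.1 and 15.9 RPKM) and IMSP1 (10.3 and 17.3 RPKM). The same libraries were the highest of their groups in Mpo, Elane, Prtn3 and Ctsg, which encode primary granule enzymes, and in Ms4a3, a gene of granulocyte and monocyte progenitors, all named here after their values were seen. Elane was at 271 RPKM in DP1, 577 in SP2 and 339 in IMSP1, but at 5.97 RPKM in DP2 and 7.82 in IMDP2. Mpo was at 766 RPKM in DP1, 1390 in SP2 and 1260 in IMSP1, but at 37.8 RPKM in DP2 and 40.2 in IMDP2, the libraries with the lowest Cebpa of their groups. IMDP cells differed in this, since Gfi1 and Cebpa were highest in IMDP1 and all 5 of these genes in IMDP3.

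Irf8 was highest in IMSP3 (20.9 RPKM), followed by IMSP1 (10.4 RPKM), which was also high in Gfi1 and Cebpa, and SP1 (9.13 RPKM). IMSP3 was also the highest library in the monocyte genes Csf1r (28.7 RPKM), Ly86 (24.8 RPKM), Ccr2 (23.9 RPKM) and F13a1 (68.5 RPKM), likewise chosen after their values were seen. In SP2, where Gfi1 and Elane were at their highest, Irf8 was at 1.05 RPKM, Csf1r at 0.504 RPKM and Ly86 at 0 RPKM. SP1 had the highest Irf8, Csf1r and Ly86 of its group (9.13, 5.05 and 5.31 RPKM). These levels are a description of single libraries, with no test.

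**Figure D4:**
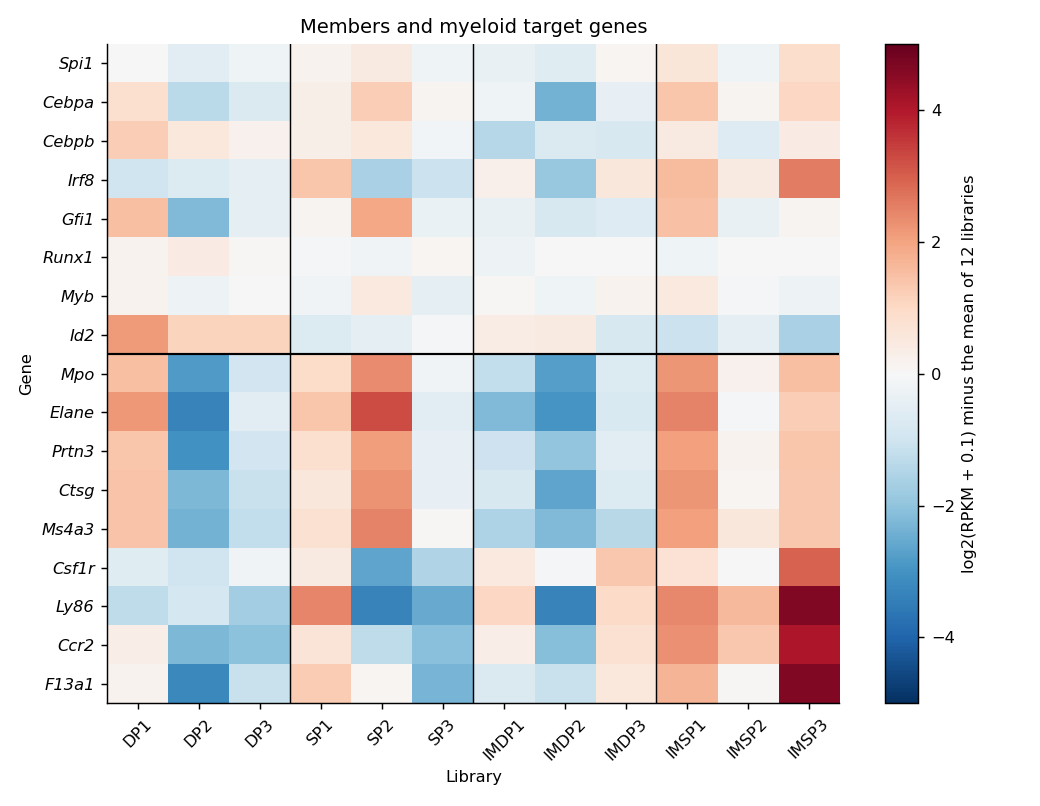
log2(RPKM + 0.1) of the 8 tested members (above the line) and of 9 myeloid target genes (below), each centered on its mean over the 12 libraries (color scale, columns by group). DP1, SP2 and IMSP1 are high in Cebpa, Gfi1 and the granule genes, and IMSP3 is high in Irf8, Csf1r, Ly86, Ccr2 and F13a1.

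A list of 29 genes, chosen as myeloid targets or markers downstream of the members, was followed, and 27 of them were tested. Under imatinib, 5 of 27 were lower in IMDP than in IMSP cells and none was higher, beside 25.6% of all genes past the test and 2342 of 10072 lower. The list median was -1.36 against -0.25 for all genes. Calr (-1.41, adjusted p = 0.0194) encodes a chaperone of the endoplasmic reticulum, and Ms4a3 (-3.03, adjusted p = 0.0214) fell from 49.3 to 137 RPKM in IMSP to 7.06 to 12.6 RPKM in IMDP cells. The inhibitory Fc receptor gene Fcgr2b (-2.03, adjusted p = 0.0355) and Cst7 (-2.36, adjusted p = 0.0473), a protease inhibitor gene, also passed, as did Ccr2. None of the 27 passed in DP against SP cells (list median -0.35, all genes -0.02), in IMDP against DP or in IMSP against SP cells. With neighbouring libraries held together, 7 were lower and 1 higher in DP than in SP cells, and 17 were lower in IMDP than in IMSP cells, beside 9.73% and 44.1% of all genes called.

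Cofactors and dimer partners made a list of 22, of which 19 were tested, and 4 fell and 1 rose in IMDP against IMSP cells, beside 25.6% of all genes called (list median -0.28, all genes -0.25). Cbfb, the partner subunit of Runx1, was at 14.0 to 19.2 RPKM in IMDP and 23.7 to 27.3 RPKM in IMSP cells (-0.63, adjusted p = 0.0142). Cbfa2t3, a corepressor gene, was at 11.6 to 14.4 against 6.38 to 9.81 RPKM (0.7, adjusted p = 0.0363), and Atf4, a stress-response bZIP factor, was also lower (-0.67, adjusted p = 0.0265). Ddit3, whose product CHOP dimerizes with C/EBP proteins, was the partner that passed in IMDP against DP cells, at 2.45 to 2.95 against 5.18 to 8.67 RPKM (-1.31, adjusted p = 0.0379). Of 37 other lineage factors 30 were tested. Tal1, an erythroid and stem cell factor, passed in IMDP against IMSP cells (0.73, adjusted p = 0.0469), and none passed in the other 3 pairwise comparisons. This was 1 of 30, beside 25.6% of all genes called. With neighbouring libraries held together, 3 of the 30 were higher and 1 lower in DP than in SP cells, and 7 were higher and 5 lower in IMDP than in IMSP cells, beside 9.73% and 44.1% of all genes. Of the partners, 5 were lower and 1 higher in that fit of IMDP against IMSP cells.

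Markers of other cells moved with the populations, and their part in the results was not tested. The 10 mast cell and basophil genes summed to 76.3 to 329 RPKM in DP and 14.9 to 194 RPKM in IMDP cells, highest in DP1 and IMDP1, against 10.5 to 23.0 RPKM in SP and 7.92 to 24.4 RPKM in IMSP cells, where Cma1, Mcpt4 and Tpsb2 were at 0 in every library. Tpsab1 was at 0 in all 12 libraries, and Tpsb2 was above 0 only in DP1 and IMDP1. The 8 macrophage genes summed to 2.67 to 11.5 RPKM in DP and 7.54 to 10.9 RPKM in IMDP cells, against at most 1.81 RPKM in SP and 2.3 RPKM in IMSP cells, with C1qa, C1qb and C1qc at 0 in every SP and IMSP library. Without DP1 and IMDP1, the population averages were 1.2 for Id2 (adjusted p = 0.0141) and -1.91 for Cebpa (adjusted p = 0.00678), and Gfi1 passed as well (-1.53, adjusted p = 0.0475), whereas Id2 in DP against SP cells (1.51, adjusted p = 0.0989) and Cebpb in IMDP against IMSP cells (-0.86, adjusted p = 0.081) no longer passed. Proliferation genes were lower in G0M+ cells, which were sorted by a marker of quiescence. Of these genes, 5 of 5 passed in DP against SP and in IMDP against IMSP cells, beside 2.26% and 25.6% of all genes. Erythroid genes summed to 206 to 266 RPKM in DP against 53.4 to 147 RPKM in SP cells, and to 56.5 to 480 RPKM in IMDP (highest in IMDP1) against 9.35 to 71.2 RPKM in IMSP cells.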

How the data were processed

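RNA of 100 sorted cells per library was reverse transcribed with not-so-random primers and made into unstranded Nextera XT libraries. The authors mapped the reads to GRCm38 with CLC Genomics Workbench, with HISAT2 and featureCounts named in their reporting summary, used edgeR for statistics and deposited RPKM values, 1 per feature and library. The annotation, and whether the deposited RPKM hold a further normalization, are not given in the sources used here. Files list 48737 features, and numbered copies (none among the members) were summed to 46103 genes.

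The 10072 genes that reached 1 RPKM in 3 or more libraries entered a limma 3.58.1 model (R 4.3.3) of log2 values with a pseudocount of 0.1 RPKM, a mean for each of the 4 groups and an intensity-dependent prior variance. Resulting p-values were adjusted by Benjamini-Hochberg over all genes (threshold 0.05). Fold changes are on that scale and understate changes of low genes. Values are mean ± SD, fold changes ± SE. Ratios were tested by exact two-sided permutation within strata. Whole reads behind the RPKM were recovered for 17734 of 17735 features above 0 (tolerance 0.02 reads) and gave the totals and a limma-voom alternative. PCR copies cannot be told apart. The scripts were tested on simulated data. Members and gene lists were chosen with earlier results of these data known. Named genes were all members, up to 4 genes per list past the threshold by smallest adjusted p in a pairwise comparison, and genes stated as chosen after their values were seen. Positions came from GENCODE M21 and promoters from RefSeq (GRCm38.p6). Python 3.11.15 with numpy 2.4.6, pandas 2.3.3, scipy 1.17.1 and matplotlib 3.10.9 was used. The pairing check compared deviations from group means: neighbouring library numbers correlated at 0.43 or more in all 6 pairs, and replicate numbers shared by DP and SP at -0.3 to -0.1.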

Additional observations from a re-analysis of the deposited data

How the results depend on the processing

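Limits: the groups hold 3 libraries each, Id2 and Cebpb rest on as few as 11 and 15 reads in a library, and several adjusted p-values lie near 0.05. Id2 averaged over treatments passed in all 12 fits without 1 library, with log2 fold changes of 1.29 to 1.67, and Cebpa in 5 of 12 (-1.72 to -1.07).

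In DP against SP cells, the number of members past the threshold was 1. It was 2 with the library-number block and 0 without a filter on low values, without DP1 and IMDP1 (an alternative chosen after seeing the data) and without some single libraries, a range of 0 to 1. In IMDP against IMSP cells it was 2. It became 6 with the library-number block, 1 with a pseudocount of 1 or 0.01, scaled medians, the highest numbered copy, limma-voom, the replicate block or without DP1 and IMDP1, and 0 without the filter or with only the compared groups in the fit, and leaving out 1 library gave 0 to 4. Averaged over treatments it was 2, then 5 with the library-number block, 1 without the filter or with scaled medians, and 1 to 3 without 1 library. The remaining counts stayed at 0.

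Replicate numbers do not pair the vehicle libraries. With the replicate block, the members past the threshold numbered 1 in IMDP against IMSP cells, where the numbers match the neighbouring library numbers and Cebpb was at an adjusted p of 0.0533, and the block changed no other call.

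Some values near 0 changed sign. Myb averaged over treatments was 0.15 with scaled medians and -0.11 to 0.13 without 1 library. Under imatinib averaged over populations, Gfi1 was 0.25 without DP1 and IMDP1 and -0.63 to 0.31 without 1 library, Cebpa -0.38 to 0.19 and Myb -0.03 to 0.21. Cebpb in IMSP against SP cells was -0.34 to 0.2. The population difference of the Irf8 to Gfi1 ratio was -0.72 to 0.48. With a pseudocount of 1, the population differences of Cebpb to Cebpa (1.01, adjusted p = 0.045, exact permutation) and of Myb to Id2 (-1.07, adjusted p = 0.045, exact permutation) passed. Without 1 library, Cebpb to Cebpa ran from 0.68 to 1.38 by population, and Myb to Id2 from -1.72 to -1.29 by population and from 0.87 to 1.3 by treatment. The first passed in 1 of 12 such tests, and Myb to Id2 in 2 of 12 by population and 2 of 12 by treatment (exact permutation). By treatment, Irf8 to Gfi1 ran from 0.7 to 1.9 and Cebpb to Cebpa from -1.16 to -0.46, and neither passed. The cause of these changes was not tested.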

Other observations

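The remaining marker lists were summed as well, and the largest of these sums was that of the neutrophil list in SP2 (40.8 RPKM). The 6 dendritic cell genes summed to 2.24 to 2.38 RPKM in DP and 1.53 to 10.2 RPKM in IMDP cells, and to 1.03 to 1.56 RPKM in SP and 2.36 to 9.36 RPKM in IMSP cells. Neutrophil secondary granule and alarmin genes summed to 1.81 to 18.5 RPKM in DP and 0.2 to 1.94 RPKM in IMDP cells, and to 2.41 to 40.8 RPKM in SP and 1.37 to 3.82 RPKM in IMSP cells. B and T cell genes stayed between 1.4 and 4.53 RPKM in all libraries. Among the LSK genes, Ly6a (Sca-1) was at 17.8 to 20.8 RPKM in IMDP and 4.71 to 9.48 RPKM in IMSP cells (log2 fold change 1.56, adjusted p = 0.017, limma).

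The B cell factors Ebf1 and Pax5, chosen after their values were seen, were listed at 0 in all 12 libraries.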
